A study of Homo sapiens with 3 samples.

Results

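The genes described here are 3 ligands of the bone morphogenetic protein (BMP) pathway, BMP2, BMP4 and BMP7, and 7 genes that respond to or restrain it: the pseudoreceptor gene BAMBI, the inhibitory SMAD genes SMAD6 and SMAD7, and the inhibitor of DNA binding genes ID1, ID2, ID3 and ID4. They were chosen by name and found in the count table through their Ensembl identifiers, which gave 10 of the 58037 genes listed. RNA was sequenced in bulk from RWPE1 cells, an immortalized line of normal adult human prostate epithelium grown without serum in 2D culture, in 3 libraries with 1 library per group. The first group carried OLFM4 of wild type (OLFM4-wild, below the wild library), the second a CRISPR/Cas9 knockout of OLFM4 (OLFM4-knockout, the knockout library), and the third was labelled OLFM4-active. The comparisons ask what the loss of OLFM4, a secreted glycoprotein gene of stem and progenitor cells, does to the transcriptome. Per the study's methods, double nickase knockout plasmids or activation plasmids for OLFM4 were transfected into the wild-type line together with a GFP reporter, cells were selected with puromycin, and RNA was taken from bulk cells sorted for GFP. The methods name activation plasmids for the OLFM4-wild GFP cells as well, the lines are described as cell clones, and how many clones stand behind each library is not given in the sources used here.

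BMPs are secreted ligands of the TGF-beta superfamily. They bind pairs of type I and type II serine/threonine kinase receptors, which phosphorylate SMAD1, SMAD5 and SMAD9, and these enter the nucleus with SMAD4 and switch on target genes. The ID genes are the best known direct targets, and their products are helix-loop-helix proteins without a DNA-binding region that tie up E proteins and so hold back differentiation. SMAD6, SMAD7 and BAMBI are induced by the same signal and damp it, and in the developing prostate BMP4 and BMP7 are known as restraints on the branching of ducts.

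The windows just upstream of ID1, ID3 and ID4 are shown because these are the ID genes whose transcripts were highest or nearly absent in the libraries. Each runs 5′ to 3′ on the gene's strand, from 250 to 11 bases before the RefSeq start in GRCh38.p14, at chr20:31605039-31605278 on the plus strand for ID1, chr1:23559512-23559751 on the minus strand for ID3 and chr6:19837120-19837359 on the plus strand for ID4. Capitals mark matches on either strand to TATAAA, to CCAAT (read as ATTGG on the other strand) or to CAGAC, the core of a SMAD-binding element.
ID1: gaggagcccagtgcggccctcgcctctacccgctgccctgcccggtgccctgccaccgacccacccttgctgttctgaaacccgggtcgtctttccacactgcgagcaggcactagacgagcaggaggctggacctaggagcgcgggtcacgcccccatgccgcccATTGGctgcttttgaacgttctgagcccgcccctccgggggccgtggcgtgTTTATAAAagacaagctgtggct
ID3: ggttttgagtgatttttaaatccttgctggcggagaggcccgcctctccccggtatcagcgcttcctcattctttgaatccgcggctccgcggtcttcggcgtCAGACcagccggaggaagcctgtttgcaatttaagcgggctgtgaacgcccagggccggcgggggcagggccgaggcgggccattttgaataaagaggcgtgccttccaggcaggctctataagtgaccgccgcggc
ID4: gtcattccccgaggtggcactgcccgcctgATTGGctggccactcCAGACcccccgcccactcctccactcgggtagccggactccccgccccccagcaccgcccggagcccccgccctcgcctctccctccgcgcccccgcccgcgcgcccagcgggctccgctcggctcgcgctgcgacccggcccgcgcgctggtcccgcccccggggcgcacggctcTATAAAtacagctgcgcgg
ID2 is left out because its window overlaps an exon of another annotated transcript. RefSeq promoters matched 8 of the 10 genes. BMP2 and BMP7 are named only. In ID1, TATAAA starts at 33 and 31 bases before the start, as overlapping matches on opposite strands, and CCAAT lies at 84. The ID1 window holds no CAGAC. ID3 holds CAGAC at 147 bases before the start and no TATAAA or CCAAT in the window. ID4 holds TATAAA at 29, CAGAC at 205 and CCAAT at 220 bases before the start. Of 27305 promoter windows of this length, 11.0% held TATAAA, 32.5% held CCAAT and 36.7% held CAGAC. The GC-rich motif of SMAD1 and SMAD5, GGCGCC, was in 15.2% of all windows, the CREB motif TGACGTCA in 1.68% and the E-box CACGTG in 6.18%, and none of these letters stood in the ID1, ID3 or ID4 window. GC content was 65.8% for ID1, 61.3% for ID3 and 77.9% for ID4, against a median of 57.5% over all windows. A match describes the letters of a window and is not a measured binding site. Sequence farther upstream was not searched, so a motif missing from a window may lie outside it.

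Values are counts of read pairs per gene and counts scaled to a common library size (CPM) with library sizes adjusted by the trimmed mean of M values (TMM), followed by exact 95% counting intervals. The intervals cover counting error only, since reads without molecular identifiers are not independent molecules, and with 1 library per group each comparison is between libraries, has no replicate check and carries no p-value. Total counts ran from 16309906 in the wild to 58837147 in the knockout library, and the third library lay between at 23224216, so that a floor of 3 counts was 0.165, 0.0584 and 0.126 CPM in the wild, knockout and active-labelled libraries. OLFM4 itself had 214 counts (11.8 CPM) in the wild, 131 (2.55 CPM) in the knockout and 16 (0.670 CPM, 0.383 to 1.09) in the library labelled OLFM4-active, which goes against the label of the last, so every direction given for that library rests on a label its OLFM4 counts contradict. The cell type was checked on markers: 7 of 7 basal prostate genes were above the floor in every library, with summed levels of 18944, 41509 and 22969 CPM in the same order. Summed luminal markers were 470.2, 429 and 310 CPM, with KLK3 at 2 counts in the wild library and at 0 in the other libraries. The endothelial genes summed to 2.20 CPM or less, with CDH5 at 0 in all libraries. The leukocyte genes summed to 34.0, 26.2 and 21.0 CPM in the same order. Most of this was CD68 at 31.4, 24.4 and 19.8 CPM, while CD3E and LYZ were at 0 throughout. The fibroblast and smooth muscle genes summed to 58.1, 43.7 and 35.9 CPM. Of these COL1A1 was at 30.2, 25.8 and 21.8 CPM and MYH11 at 21.4, 10.1 and 11.9 CPM, while COL3A1 and LUM were at 0 throughout.

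Over all 3 libraries the ID genes and the ligands spanned a wide range. On the scale of CPM per kilobase of exon, which allows levels of different genes to be compared, ID1 was the most abundant member in every library at 213, 482 and 183 (wild, knockout and labelled OLFM4-active), and ID3 was the next at 123, 181 and 80.5. In the wild library ID2 followed at 19.9 and BMP2 at 11.1 CPM per kilobase. BAMBI at 3.65 (3.08 to 4.31), SMAD7 at 3.25 (2.85 to 3.70) and BMP7 at 3.003 (2.67 to 3.37) came after them with overlapping intervals and could not be ordered. SMAD6 at 2.05, ID4 at 0.554 and BMP4 at 0.142 CPM per kilobase closed the order. In the knockout library BMP2 at 18.9 and BMP7 at 9.47 CPM per kilobase both stood above ID2 at 6.86, and ID4 took the last place at 0.00503. The library labelled OLFM4-active had BMP2 at 12.6 and BMP7 at 6.56 CPM per kilobase above ID2 at 3.31 and BAMBI at 3.25, which did not separate from each other, nor did ID4 and BMP4 at the bottom. The mean over the libraries was at least 1 CPM for 8 of the 10 genes, all but BMP4 and ID4, as for 16600 of the 58037 genes in the table.

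**Figure D1:**
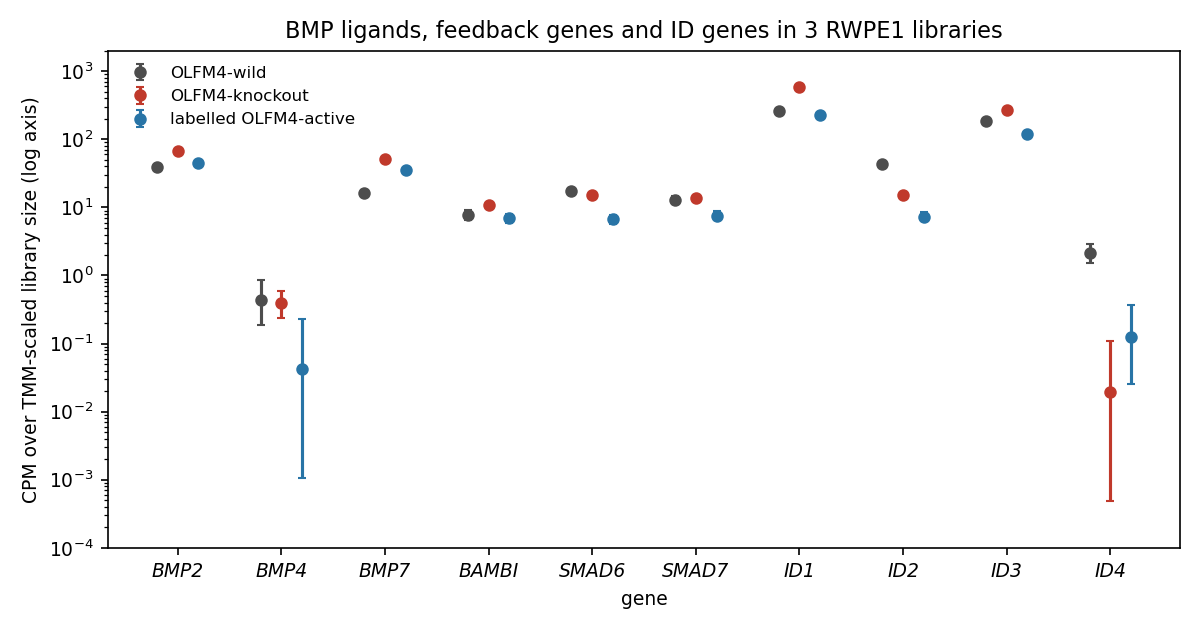
Level of each of the 10 genes in the 3 libraries, in CPM over TMM-scaled library size on a log axis. Points are single libraries (grey wild, red knockout, blue labelled OLFM4-active) and bars are exact 95% counting intervals. ID1 and ID3 lie above 100 CPM in all libraries, and ID4 lies at 2.15 CPM in the wild library and at 0.126 CPM or less in the other libraries.

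Both abundant BMP ligands were higher in the knockout than in the wild library, and BMP7 was the ligand with the larger difference. BMP2, a ligand best known for inducing bone (ENSG00000125845.6, plus strand of chromosome 20, 6767686 to 6780246), had 716 counts in the wild, 3432 in the knockout and 1069 in the library labelled OLFM4-active. That is 39.4 CPM (36.6 to 42.4), 66.9 CPM (64.6 to 69.1) and 44.7 CPM (42.1 to 47.5). The knockout library was the high one, and the intervals of the other libraries overlapped. The log2 fold change was 0.76 (0.65 to 0.88) for knockout against wild, 0.18 (0.05 to 0.32) for labelled OLFM4-active against wild and 0.58 (0.48 to 0.68) for knockout against labelled OLFM4-active. With library totals in place of TMM these were 0.41, 0.07 and 0.34.

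BMP7, a ligand of kidney and epithelial development (ENSG00000101144.12, minus strand of chromosome 20, 57168753 to 57266641), had 296 counts in the wild, 2638 in the knockout and 850 in the library labelled OLFM4-active. On the CPM scale these were 16.3 (14.5 to 18.3), 51.4 (49.4 to 53.4) and 35.6 (33.2 to 38.0), with the wild library lowest and no overlap between any pair of libraries. BMP7 was 3.15-fold higher in the knockout than in the wild library, a log2 fold change of 1.66 (1.48 to 1.84), and 1.14% of the 16600 genes averaging at least 1 CPM had a higher one. The library labelled OLFM4-active was 2.18-fold above wild, with a log2 fold change of 1.13 (0.93 to 1.32) that 2.81% of genes exceeded. These comparisons share the wild library, so a low value there enters both of them. Its antisense neighbour BMP7-AS1 had 2, 7 and 6 counts, and the counting used strand.

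BMP4, the ligand that patterns the mesenchyme of many organs (ENSG00000125378.15, minus strand of chromosome 14, 53949736 to 53958761), was close to the floor, with 8 counts in the wild, 20 in the knockout and 1 in the library labelled OLFM4-active. Its levels were 0.440 CPM (0.190 to 0.868), 0.390 CPM (0.238 to 0.602) and 0.0419 CPM (0.00106 to 0.233). The interval of the wild library overlapped both others, and the log2 fold change of knockout against wild was -0.23 (-1.42 to 1.22), or -0.58 with totals. For the single count in the library labelled OLFM4-active, the ratio of CPM to wild was 0.0951 with a counting interval of 0.00214 to 0.709, and the knockout library was at 9.31 times that level (1.49 to 386).

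Shares within a library do not depend on how libraries are scaled. Of the summed counts of BMP2, BMP4 and BMP7, BMP7 made up 29.0% (26.2 to 31.9) in the wild, 43.3% (42.1 to 44.6) in the knockout and 44.3% (42.0 to 46.5) in the library labelled OLFM4-active. BMP2 made up the bulk of the rest, at 70.2%, 56.4% and 55.7%, and BMP4 stayed at 0.784% or less. The ratio of BMP7 to BMP2 counts was accordingly 0.413 (0.360 to 0.474) in the wild library, 0.769 (0.730 to 0.809) in the knockout and 0.795 (0.726 to 0.871) in the library labelled OLFM4-active, where the last pair of intervals overlapped. The ligands together came to 56.1 CPM (52.7 to 59.7), 119 CPM (116 to 122) and 80.4 CPM (76.8 to 84.0) in the same order.

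The genes that restrain the pathway moved less than BMP7 in the knockout library, and the inhibitory SMADs were lowest in the library labelled OLFM4-active. BAMBI, which encodes a receptor-like membrane protein without a kinase domain (ENSG00000095739.10, plus strand of chromosome 10, 28677510 to 28682932), had 142 counts in the wild, 548 in the knockout and 166 in the library labelled OLFM4-active. The CPM were 7.81 (6.58 to 9.21), 10.7 (9.80 to 11.6) and 6.95 (5.93 to 8.09). Only the knockout library stood apart, and the other libraries overlapped. Its log2 fold change was 0.45 (0.18 to 0.73) for knockout against wild, which shrank to 0.09 with library totals, and -0.17 (-0.50 to 0.16), or -0.29 with totals, for labelled OLFM4-active against wild.

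SMAD6, the inhibitory SMAD that acts mainly on the BMP arm (ENSG00000137834.14, plus strand of chromosome 15, 66702236 to 66782849), had 319, 771 and 161 counts in the wild, knockout and active-labelled libraries. These were 17.6 CPM (15.7 to 19.6), 15.0 CPM (14.0 to 16.1) and 6.74 CPM (5.74 to 7.86), so the wild and knockout intervals overlapped and the library labelled OLFM4-active was the low one. SMAD6 was there 2.60-fold below wild, a log2 fold change of -1.38 (-1.66 to -1.10), whereas the knockout library differed from wild by -0.23 (-0.42 to -0.03), or -0.58 with totals. A gene without a symbol on the same strand, ENSG00000274995, overlaps SMAD6 and had 7, 5 and 0 counts.

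SMAD7, which blocks both the BMP and the TGF-beta arm (ENSG00000101665.8, minus strand of chromosome 18, 48919853 to 48950965), had 233, 715 and 181 counts, or 12.8 CPM (11.2 to 14.6), 13.9 CPM (12.9 to 15.0) and 7.58 CPM (6.51 to 8.76) in the same order. Here too the wild and knockout libraries overlapped, and the library labelled OLFM4-active lay below both. The log2 fold change was 0.12 (-0.10 to 0.34) for knockout against wild, with -0.24 by library totals, and -0.76 (-1.05 to -0.47) for labelled OLFM4-active against wild. The ratio of SMAD7 to SMAD6 counts was 0.730 (0.614 to 0.868) in the wild, 0.927 (0.836 to 1.03) in the knockout and 1.12 (0.904 to 1.40) in the library labelled OLFM4-active. Neighbours in that order overlapped, while the first and the last did not.

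The 4 ID genes did not move together. ID1 and ID3 were highest in the knockout library, whereas ID2 and ID4 were highest in the wild library. ID1, the prototype BMP target gene of the family (ENSG00000125968.8, plus strand of chromosome 20, 31605283 to 31606515), had 4761 counts in the wild, 30531 in the knockout and 5387 in the library labelled OLFM4-active. In CPM these were 262 (255 to 270), 595 (588 to 601) and 225 (219 to 232), with no overlap between libraries. The knockout library was 2.27-fold above wild, a log2 fold change of 1.18 (1.14 to 1.23), or 0.83 with library totals, and 3.66% of the 16600 genes had a higher one. Against the library labelled OLFM4-active its log2 fold change was 1.40 (1.36 to 1.44), which 0.855% of genes exceeded. The library labelled OLFM4-active lay below wild, with a log2 fold change of -0.22 (-0.27 to -0.16), or -0.33 with totals. Of 7 basal epithelial markers, 7 lay above 0 in the knockout against the wild library with TMM and 6 with totals, with medians of 0.92 and 0.57. Of all genes 56.7% and 32.5% lay above 0 there, with medians of 0.10 and -0.26. In the library labelled OLFM4-active, where ID1 was lower than in wild, 6 of the 7 markers lay above 0 under both scalings, with medians of 0.32 and 0.21. Of all genes 53.9% and 44.1% did, with medians of 0.05 and -0.07. The part of these markers in the ID1 result was not tested.

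ID3, the closest partner of ID1 in expression in many tissues (ENSG00000117318.8, minus strand of chromosome 1, 23557926 to 23559501), had 3351, 13869 and 2877 counts in the wild, knockout and active-labelled libraries, or 184 CPM (178 to 191), 270.2 CPM (266 to 275) and 120.4 CPM (116 to 125). The order of the libraries was that of ID1, again without overlap. Log2 fold changes were 0.55 (0.50 to 0.61) for knockout against wild, or 0.20 with library totals, and -0.61 (-0.69 to -0.54) for labelled OLFM4-active against wild. The excess of ID1 over ID3 in the knockout library also shows within libraries: the ratio of their counts was 1.42 (1.36 to 1.49) in the wild, 2.20 (2.16 to 2.25) in the knockout and 1.87 (1.79 to 1.96) in the library labelled OLFM4-active.

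ID2, known for its binding of E proteins and of the retinoblastoma protein (ENSG00000115738.9, plus strand of chromosome 2, 8678845 to 8684461), had 800 counts in the wild, 779 in the knockout and 175 in the library labelled OLFM4-active. Its CPM were 44.03 (41.0 to 47.2), 15.2 (14.1 to 16.3) and 7.32 (6.28 to 8.49), and the libraries did not overlap. ID2 was 2.90-fold lower in the knockout than in the wild library, a log2 fold change of -1.54 (-1.68 to -1.39), with 3.03% of the 16600 genes lower still. In the library labelled OLFM4-active it was lower again, with a log2 fold change of -2.58 (-2.83 to -2.35) and 0.795% of genes below it. The opposite-strand gene ID2-AS1 had 15, 25 and 3 counts.

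ID4, a family member reported to be silenced by methylation in prostate cancer (ENSG00000172201.11, plus strand of chromosome 6, 19837370 to 19842197), had 39 counts in the wild library, 1 in the knockout and 3 in the library labelled OLFM4-active. Its levels were 2.15 CPM (1.53 to 2.93), 0.0195 CPM (0.000493 to 0.109) and 0.126 CPM (0.0259 to 0.367). Both of the latter were at or under the floor of 3 counts and overlapped each other, so no fold between them is given. The ratio of the knockout to the wild level was 0.00908 with a counting interval of 0.000224 to 0.0536, and that of the library labelled OLFM4-active was 0.0585 (0.0116 to 0.184). The opposite-strand gene LNC-LBCS had 15, 8 and 5 counts.

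Against the wild library, most markers of squamous differentiation moved in the same direction as ID2 and ID4 in the other libraries. Of 10 such genes 9 averaged at least 1 CPM, and 7 of them (SPRR3, CRNN, FLG, DSC1, KRTDAP, KRT1 and SPRR1B) had a log2 fold change below -1 in the knockout against the wild library, with a median of -3.89. In the library labelled OLFM4-active 6 of 9 were below -1, where 6.73% of all genes were, and the median was -3.93. With totals these medians were -4.25 and -4.05. Both comparisons share the wild library. In the knockout against the library labelled OLFM4-active, 4 of the 9 markers lay above 0 and 5 below, with a median of -0.04. ID2 was at 1.05 in that comparison. KRT10, the most abundant of the list, was higher in the knockout than in the wild library, at 1217, 1331 and 842 CPM in the wild, knockout and active-labelled libraries. IVL was at 11.0, 9.19 and 9.46 CPM in the same order. The list summed to 2072 CPM in the wild, 1474 in the knockout and 1051 in the library labelled OLFM4-active, and LORICRIN had 9, 0 and 1 counts. Their part in the ID2 and ID4 results was not tested, and in bulk RNA fewer cells of a type and less RNA per cell cannot be told apart.

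The make-up of the ID transcripts shifted accordingly. ID1 made up 53.2% (52.1 to 54.2) of the summed ID1 to ID4 counts in the wild library, 67.6% (67.1 to 68.0) in the knockout and 63.8% (62.8 to 64.8) in the library labelled OLFM4-active. The ID2 share was 8.94% (8.35 to 9.55), 1.72% (1.61 to 1.85) and 2.07% (1.78 to 2.40), where the last pair overlapped. ID3 made up 37.4%, 30.7% and 34.1%, and ID4 0.436%, 0.00221% and 0.0355%. For each ID2 count there were 5.95 ID1 counts (5.52 to 6.42) in the wild library, 39.2 (36.5 to 42.1) in the knockout and 30.8 (26.5 to 36.0) in the library labelled OLFM4-active. The ID genes summed to 493 CPM (482 to 503) in the wild, 880 CPM (872 to 888) in the knockout and 353 CPM (346 to 361) in the library labelled OLFM4-active, so the total had the library order of ID1 and ID3 while the ID2 share was low in both libraries other than wild.

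**Figure D2:**
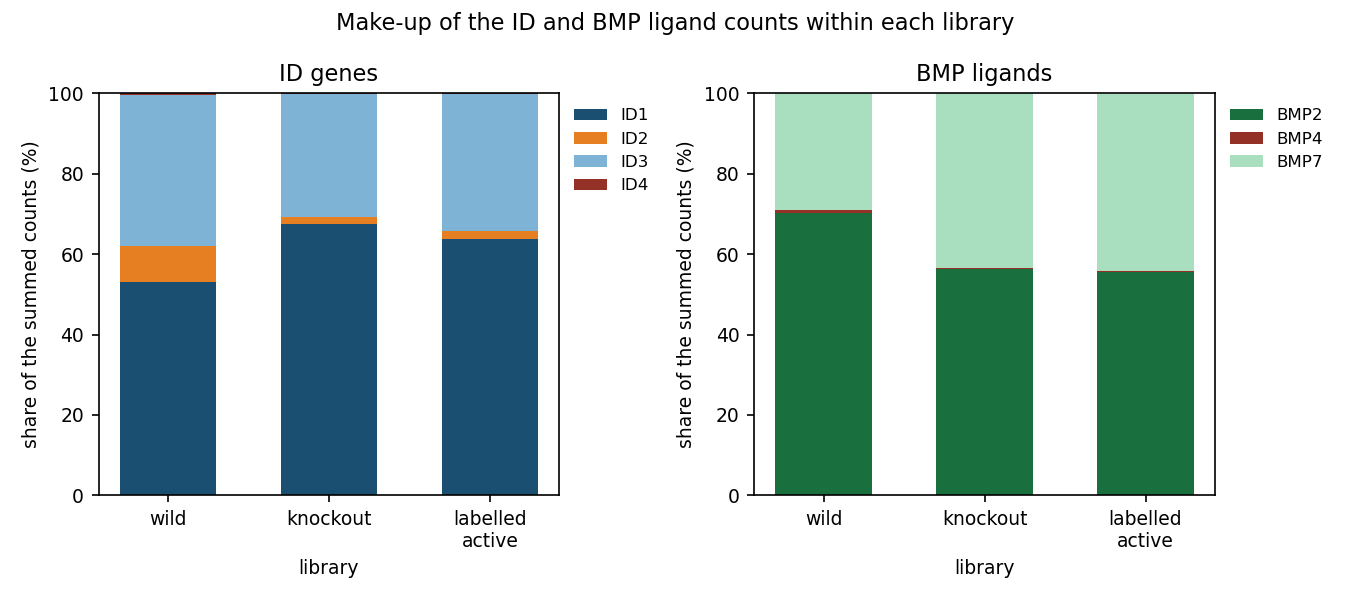
Share of each gene in the summed counts of ID1 to ID4 (left) and of BMP2, BMP4 and BMP7 (right), in percent, with 1 bar per library. The ID2 band narrows from 8.94% in the wild library to 1.72% and 2.07% in the other libraries, and the BMP7 band widens from 29.0% to 43.3% and 44.3%.

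Set against all genes, BMP7 and ID1 lay above a log2 fold change of 1 in the knockout against the wild library, 2 of the 10 genes, where 5.77% of the 16600 genes averaging at least 1 CPM did. Below -1 were ID2 and ID4, where 7.56% of all genes were. Of the 8 genes that met that mean, 2 were above 1 and 1, ID2, was below -1. In the library labelled OLFM4-active against wild, BMP7 alone was above 1, with 3.78% of all genes, and BMP4, SMAD6, ID2 and ID4 were below -1, with 6.73% of all genes, BMP4 and ID4 resting on 1 and 3 counts. These shares cover genes averaging at least 1 CPM, and of the 8 genes that met this mean 1 was above 1 and 2 were below -1. In the knockout against the library labelled OLFM4-active, 5 of 9 genes with a fold change (BMP4, SMAD6, ID1, ID2 and ID3) were above 1, where 2.95% of all genes were, and 0 were below -1, where 3.39% were. Without BMP4, which did not meet the mean, the count above 1 was 4 of 8. Next to ID1 these were ID3 at 1.17 (1.11 to 1.22), SMAD6 at 1.15 (0.91 to 1.41) and ID2 at 1.05 (0.81 to 1.30), which came to 0.93, 0.92 and 0.81 with library totals. SMAD7 at 0.88 (0.64 to 1.12) and BAMBI at 0.62 (0.37 to 0.88), or 0.38 with totals, lay short of 1. No test stands behind these counts.

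The 3 comparisons used 3 libraries in pairs and are not independent of each other. With TMM, 6 of the 8 genes averaging at least 1 CPM were higher in the knockout than in the wild library, against 56.7% of all genes. With library totals 5 were, against 32.5% of all genes, since TMM raised every log2 fold change of this comparison by 0.35. The median over the 8 genes was 0.50 against 0.10 for all genes with TMM, and 0.15 against -0.26 with totals. In the library labelled OLFM4-active 2 of the 8, BMP2 and BMP7, were higher than in wild under both scalings, against 53.9% of all genes with TMM and 44.1% with totals. All 8 were higher in the knockout than in the library labelled OLFM4-active under both scalings, with a median of 0.96 against 0.08 for all genes with TMM and 0.72 against -0.16 with totals. Of all genes 56.7% and 36.6% were higher there. The smallest of these differences was that of BMP7, at 0.53 (0.42 to 0.64), or 0.29 with totals, and the largest that of ID1.

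**Figure D3:**
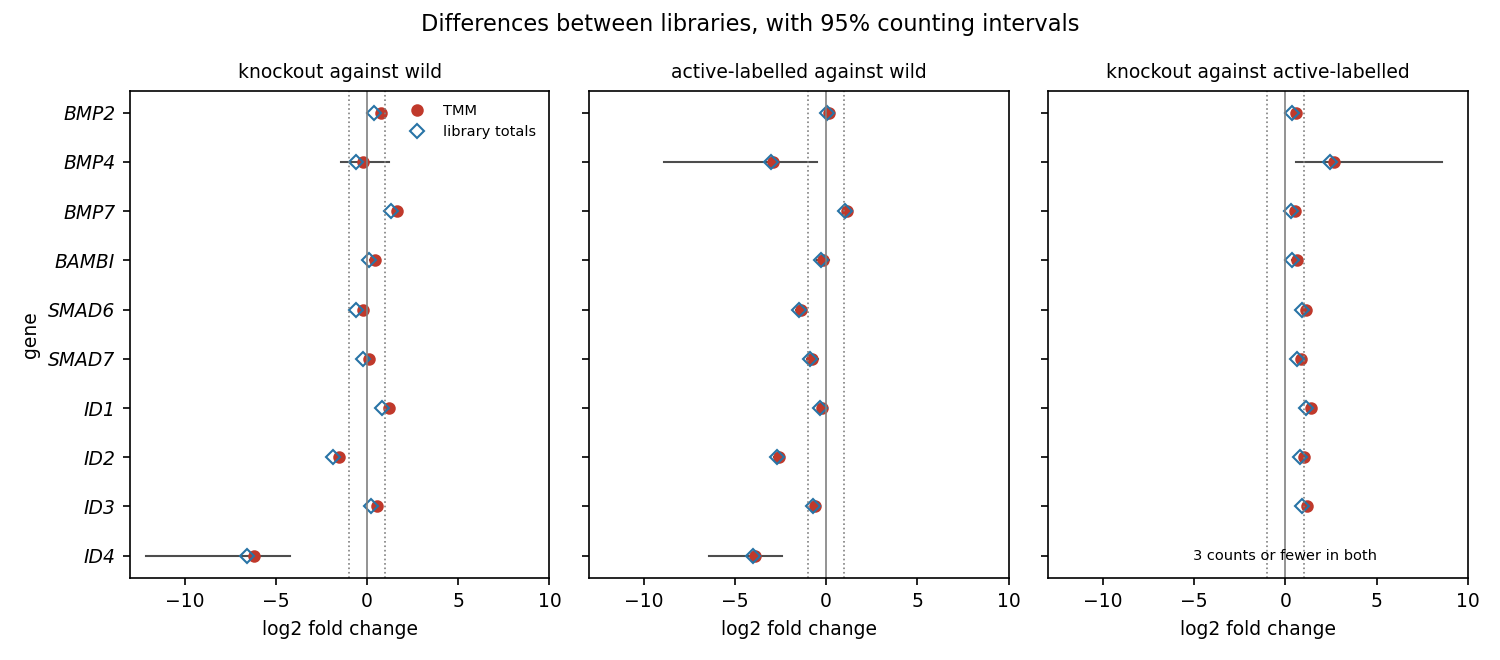
Log2 fold change of each of the 10 genes in the 3 comparisons of libraries, with TMM scaling (filled circles) and library totals (open diamonds). Horizontal lines are 95% counting intervals of the TMM value, and dotted lines mark -1 and 1. BMP7 lies right of 1 in the first pair of panels, ID2 lies left of -1 in both, and every gene with a value in the last panel lies right of 0.

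The rest of the pathway was read from 9 gene lists, and genes named from them passed a log2 fold change of 1 or -1 in the knockout against the wild library or were the most abundant per kilobase. Of all genes averaging at least 1 CPM, 5.77% were above 1 and 7.56% below -1 in that comparison. For the library labelled OLFM4-active against wild these shares were 3.78% and 6.73%. Of 17 other BMP and GDF ligands 5 averaged at least 1 CPM, 0 were above 1 and 1 was below -1. This was GDF15, a stress-induced ligand, at 10.2, 1.23 and 1.46 CPM in the wild, knockout and active-labelled libraries, with a log2 fold change of -3.04 (-3.49 to -2.63) in the knockout comparison. The median of the 5 ligands was -0.26. GDF9, best known from the oocyte and the most abundant of the list by the mean per kilobase over the libraries, led it in the knockout library but not in the others. It overlaps UQCRQ on the opposite strand and had 344, 1790 and 369 counts.

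The receptors and the signal-carrying SMADs were mostly lower in the knockout library, where ID1 was higher. Of 12 receptors and coreceptors 9 averaged at least 1 CPM, and 8 of these 9 were below 0 in the knockout against the wild library, with a median of -0.27, or -0.62 with totals. Over all genes the medians were 0.10 and -0.26, and 56.7% of genes with TMM but 32.5% with totals lay above 0, so most genes were below 0 under the second scaling. ACVR2B, a type II receptor for activins and some BMPs, was the 1 below -1, at 8.81, 3.64 and 3.47 CPM. BMPR2, the main type II receptor for BMPs and the most abundant of the list, was at 93.4, 73.5 and 128 CPM, a log2 fold change of -0.35 (-0.43 to -0.26), or -0.70 with totals, in the knockout and 0.46 (0.37 to 0.55) in the library labelled OLFM4-active. In that library the receptor median was 0.19. All 4 signal SMADs (SMAD1, SMAD5, SMAD9 and SMAD4) were below 0 in both comparisons with wild, from -0.70 to -0.37 in the knockout and with medians of -0.53 and -0.52, against medians over all genes of 0.10 and 0.05. With totals these medians were -0.88 and -0.64, against -0.26 and -0.07 over all genes. SMAD5, the most abundant, was at 109.7, 84.8 and 78.3 CPM.

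Among 17 extracellular antagonists 6 averaged at least 1 CPM, and 1 was above 1 in the knockout against the wild library. FST, which encodes follistatin, a secreted binder of activins and of some BMPs, had 773 counts in the wild, 13261 in the knockout and 10035 in the library labelled OLFM4-active, or 42.5, 258 and 420.0 CPM. Its log2 fold change was 2.60 (2.50 to 2.71) in the knockout and 3.30 (3.20 to 3.41) in the library labelled OLFM4-active against wild, higher than that of any of the 10 genes in the same comparisons. The list median was 0.13 with TMM and turned to -0.22 with totals in the knockout comparison. NOG, the classical antagonist noggin, had 2, 22 and 11 counts and did not reach a mean of 1 CPM. It was picked after its values were seen, as was DLX3, given with the BMP-induced genes.

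Other genes known to be induced by BMPs lay in both directions. Of 13 listed 10 averaged at least 1 CPM, with 0 above 1 and 3 below -1 in the knockout against the wild library. Of all genes 5.77% and 7.56% were. In that comparison 4 of the 10 lay above 0 and 6 below, with a median of -0.16, or -0.51 with totals. Over all genes these medians were 0.10 and -0.26. In the library labelled OLFM4-active against wild, 2 lay above 0 and 8 below. The median there was -0.41, or -0.53 with totals, against 0.05 and -0.07 over all genes. GATA3, a transcription factor of epithelial lineages, was at 15.2, 3.76 and 6.07 CPM, with a log2 fold change of -2.01 (-2.29 to -1.74). DLX5, a homeobox gene, was at 3.85, 1.01 and 0.795 CPM with -1.92 (-2.47 to -1.39), and ATOH8, a basic helix-loop-helix gene, at 7.32, 3.14 and 1.46 CPM with -1.22 (-1.56 to -0.88). In the library labelled OLFM4-active these 3 and DLX3 were below -1, ATOH8 at -2.31 (-2.90 to -1.77), DLX5 at -2.25, GATA3 at -1.32 and DLX3 at -1.20. JUNB, an immediate early gene and the most abundant of the list, had the order of ID1 and ID3 over the libraries: 332, 467.5 and 228 CPM, with log2 fold changes of 0.50 (0.46 to 0.54) in the knockout and -0.54 (-0.60 to -0.49) in the library labelled OLFM4-active. With totals the former was 0.14.

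ID proteins bind E proteins, and the next list holds the E protein genes together with other basic helix-loop-helix genes. Of 15 listed 7 averaged at least 1 CPM, with 1 above 1 and 2 below -1 in the knockout against the wild library. The most abundant, TCF3, which encodes E12 and E47, was at 87.3, 111 and 98.2 CPM, with a log2 fold change of 0.35 (0.27 to 0.43) that came to 0.00 with totals. TCF4, another E protein gene, was at 24.2, 8.42 and 12.5 CPM, or -1.52 (-1.72 to -1.33). BHLHE40, a repressor of the basic helix-loop-helix class, was at -1.61 (-1.77 to -1.45), and ASCL2, a progenitor factor, at 1.09 (0.88 to 1.30), or 0.73 with totals. Of 14 intracellular regulators of SMADs 13 averaged at least 1 CPM and 2 were below -1, ZEB1 at -1.15 (-1.75 to -0.55) and TOB1 at -1.11 (-1.25 to -0.96). STUB1, a ubiquitin ligase and the most abundant of them, was at 53.4, 73.6 and 65.2 CPM.

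In the sister arm of TGF-beta and activin, which shares SMAD4 and SMAD7, 10 of 11 genes averaged at least 1 CPM and 2 were below -1 in the knockout against the wild library. INHBA, the subunit gene of activin A, had 198, 34 and 24 counts, a log2 fold change of -4.02 (-4.61 to -3.51). TGFB2 was at -1.38 (-1.66 to -1.09), and TGFB1, the most abundant by the mean per kilobase though not in the knockout library, at 61.6, 41.1 and 72.2 CPM. Of 9 genes known to be induced by TGF-beta, all averaging at least 1 CPM, CDKN2B was below -1 at -2.32 (-2.41 to -2.23). The most abundant, TGFBI, was at 892, 1569 and 1014 CPM.

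**Figure D4:**
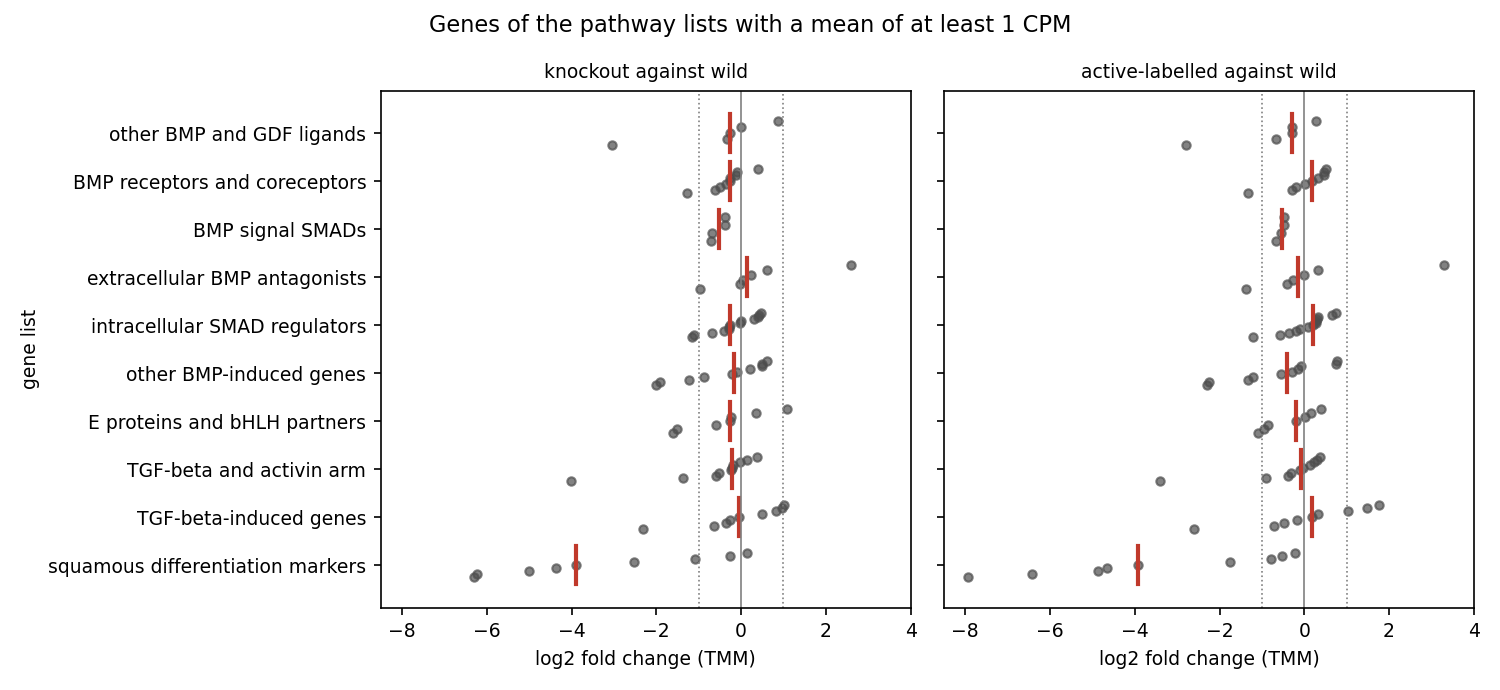
Log2 fold change (TMM) against the wild library of each gene averaging at least 1 CPM in 9 pathway lists and the squamous marker list, for the knockout library (left) and the library labelled OLFM4-active (right). Grey points are genes, red bars are list medians and dotted lines mark -1 and 1. FST is the point at 2.60 and 3.30 among the antagonists, and the squamous markers have medians of -3.89 and -3.93.

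Genes most alike in pattern were sought among 9662 protein-coding genes averaging at least 10 CPM, as the 3 genes nearest in the pair of log2 fold changes against wild, over 3 libraries. For ID1 these were KRT6C (1.07 and -0.25 in the knockout and the library labelled OLFM4-active), SAMD11 (1.17 and -0.10) and TGM1 (1.04 and -0.18), and KRT6C shares sequence with its KRT6 paralogs, which makes its counts uncertain. For ID2 they were C3 (-1.46 and -2.51), TRIM22 (-1.58 and -2.43) and SESN2 (-1.61 and -2.32). For ID3 they were RGS14 (0.59 and -0.57), BICDL1 (0.54 and -0.55) and LGALS7B (0.48 and -0.57), of which the last has a nearly identical copy. Within a distance of 0.25 there were 9 genes around ID1, 34 around ID3 and 2 around ID2.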

How the data were processed

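Total RNA depleted of ribosomal RNA was sequenced as stranded read pairs in 3 RWPE1 libraries (OLFM4-wild, OLFM4-knockout and labelled OLFM4-active), 1 per group by GEO's labels. Per the study's methods and processing notes, the authors trimmed reads with cutadapt, aligned them to GRCh38 with HISAT2 and counted uniquely mapped, reversely stranded pairs per gene with featureCounts, and deposited raw counts. The annotation release is not given in the sources used here. Of 58037 genes, 56948 matched GENCODE 44, which gave symbols, positions and exon lengths. Columns that belong to no sample numbered 0.

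Here CPM were taken over TMM-scaled library sizes (edgeR 4.0.16, R 4.3.3) with factors of 1.11, 0.872 and 1.03 for the wild, knockout and active-labelled libraries. Log2 fold changes used an offset of 0.5 counts, as in voom of limma 3.58.1, and exact conditional intervals at 95% (scipy 1.17.1). Genes were counted past a log2 fold change of 1 or -1, with a mean of at least 1 CPM for the background. No test could be fitted with 1 library per group. Intervals were tried on simulated counts that held counting error only, with known scaling, so variation between libraries was not covered. Alternatives were library totals, size factors of DESeq2 1.42.0, upper quartiles, offsets of 1 and 5 counts, libraries without their 10 most abundant genes, thinning to equal depth, other filters and a fold of 2. All 10 genes are named; genes of the lists are named where they passed the fold in the knockout comparison, at most 3 per list and direction, or were most abundant per kilobase. The genes, lists and rules were chosen with earlier results of these data known. A few listed genes are not reported here.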

Additional observations from a re-analysis of the deposited data

How the results depend on the processing

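No paired analysis was possible because each group had 1 library and the labels give no replicate numbers. Of 29 fold changes of the 10 genes, 28 kept their sign in all 7 alternatives of scaling, offset, top genes and thinning, and SMAD7 in the knockout against the wild library ran from -0.24 (library totals) to 0.13. Values that rest on few counts moved most, ID4 in that comparison from -6.57 to -4.37 and BMP4 in the knockout against the library labelled OLFM4-active from 0.96 to 2.67. With library totals, 1 in place of 2 of the genes lay above 1 in the knockout against wild, since ID1 came to 0.83, and 2 in place of 5 in the knockout against the library labelled OLFM4-active. At a log2 fold change of 2 these counts were 0 and 1, the count below -2 in the knockout comparison was 1, and that above 2 in the library labelled OLFM4-active against wild was 0.

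Over all genes, 957 lay above 1 and 1255 below -1 in the knockout comparison, against 368 and 2308 with totals, 3338 and 7970 without a filter and 1864 and 3420 with at least 10 counts. For the library labelled OLFM4-active against wild these were 627 and 1117, against 480 and 1387, 4707 and 7134, and 1452 and 2679. In the knockout against the library labelled OLFM4-active they were 490 and 563, against 212 and 1135, 4017 and 5901, and 1586 and 2057. Depth limits BMP4 and ID4, for which 1 to 39 counts stand behind each value.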
